A study of Mus musculus with 12 samples.

Results

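The NR4A family of orphan nuclear receptors comprises *Nr4a1* (NCBI Gene 15370), *Nr4a2* (NCBI Gene 18227) and *Nr4a3* (NCBI Gene 18124), also known as Nur77, Nurr1 and NOR-1. These 3 genes were taken by symbol from the 16234 genes listed in the count table, and each was followed in all 12 libraries. The libraries were RNA-seq of mouse bone marrow-derived mast cells (BMMCs), which are mast cells grown from bone marrow with IL-3 and SCF. Cells came from littermate mice of 3 *Elk4* genotypes by label, WT (wild type), HZ (heterozygous) and KO (knockout), and 2 libraries were made per genotype and condition. *Elk4* encodes a ternary complex factor that partners with serum response factor, and the mice were conventional knockouts, in which the allele is not limited to mast cells. Stimulated cells were loaded overnight with 0.5 µg/ml anti-DNP IgE and then received 100 ng/ml DNP-HSA for 1 h, which cross-links FcϵRI. Unstimulated cells were labelled as untreated, and the labels did not state whether they had received IgE. No label said that libraries of a group came from separate mice or cultures, so p-values measure the spread between these libraries, which may be technical.

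NR4A proteins are transcription factors whose ligand-binding pocket is closed by bulky side chains, so their activity is set mainly by how much of them a cell makes. They bind DNA as monomers at the NBRE, as dimers at the NurRE, and, for NR4A1 and NR4A2, as heterodimers with RXR. Their genes are immediate-early genes, transcribed within minutes of calcium, cAMP or MAP kinase signalling without new protein synthesis. In lymphocytes they are used as reporters of antigen receptor signalling, and cross-linking of FcϵRI on mast cells uses related signalling steps.

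The promoter sequences are shown because all 3 genes rose on stimulation, and the cAMP response element (CRE), bound by CREB and ATF proteins, is a known feature of NR4A promoters. The 250 bases before each RefSeq start site are printed 5′ to 3′ on the gene's own strand, from build GRCm38.p6. They lie at chr15:101266596-101266845 on the plus strand for *Nr4a1*, chr2:57124004-57124253 on the minus strand for *Nr4a2* and chr4:48045055-48045304 on the plus strand for *Nr4a3*. Capitals mark the CRE core TGACG or its reverse complement CGTCA, and in *Nr4a1* the longer run TGCGTCA in which each of its CRE cores lies.
*Nr4a1* promoter: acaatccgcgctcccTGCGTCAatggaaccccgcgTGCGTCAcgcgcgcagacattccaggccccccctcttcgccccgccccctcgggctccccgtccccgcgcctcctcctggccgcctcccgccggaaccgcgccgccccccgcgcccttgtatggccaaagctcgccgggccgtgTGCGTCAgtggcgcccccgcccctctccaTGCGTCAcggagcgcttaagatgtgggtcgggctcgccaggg
*Nr4a2* promoter: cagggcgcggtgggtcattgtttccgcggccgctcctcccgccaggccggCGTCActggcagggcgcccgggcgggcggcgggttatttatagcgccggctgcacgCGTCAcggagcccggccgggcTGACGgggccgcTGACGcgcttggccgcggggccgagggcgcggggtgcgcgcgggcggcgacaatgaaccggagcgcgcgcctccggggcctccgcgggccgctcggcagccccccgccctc
*Nr4a3* promoter: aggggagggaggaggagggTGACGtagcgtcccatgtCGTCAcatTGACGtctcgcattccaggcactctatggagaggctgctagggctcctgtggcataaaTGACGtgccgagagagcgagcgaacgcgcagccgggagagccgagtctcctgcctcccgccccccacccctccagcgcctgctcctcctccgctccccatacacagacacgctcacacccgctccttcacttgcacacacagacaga

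Motifs were counted on both strands in these windows extended by 50 bases past the start site. Each of the 3 windows held 4 copies of the CRE core. In the *Nr4a1* window the copies began 233, 213, 69 and 40 bases before the start site, all read as CGTCA. Those of *Nr4a2* began 200, 144, 123 and 111 bases before the start, and those of *Nr4a3* began 231, 213, 205 and 147 bases before it. Among 32851 RefSeq windows of 27025 genes searched the same way, 20.8% held at least 1 copy, 5.01% at least 2, 1.03% at least 3 and 0.231% at least 4. The run TGCGTCA was present 4 times in *Nr4a1*, in neither other member, and in 2.12% of all windows. This run was looked for only after the windows had been seen, and it overlaps the CRE cores counted above.

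The full CRE TGACGTCA was in none of the 3 windows and in 1.79% of all windows. The NBRE AAAGGTCA was also in none and in 1.51% of all windows, and the CArG box, the site of serum response factor, was in none and in 1.63%. The AP-1 site TGACTCA was in none (5.2% of all windows), nor was the EGR site GCGTGGGCG (0.612%). The EGR site GCGGGGGCG occurred once in *Nr4a1* (2.91% of all windows), as did the ETS core CCGGAA (14.9%). The MEF2 site occurred once in *Nr4a2* (3.19%), overlapping a TATA box TATAAA (13.6%), and the NFAT core GGAAA also occurred once there (61.3%). The SP1 site GGGCGG was found 3 times in *Nr4a1*, 5 times in *Nr4a2* and once in *Nr4a3* (35.7%). The printed stretches were rich in G and C, with 74.4% in *Nr4a1*, 80.0% in *Nr4a2* and 63.6% in *Nr4a3*, against a median of 52.4% over all windows.

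Each library held 29697958 to 35531667 counts. Tests were run with the quasi-likelihood method of edgeR, and p-values were adjusted (Benjamini-Hochberg) over 12208 genes that passed a filter on low counts, as all 3 members did. The biological coefficient of variation, the spread between libraries of a group beyond counting error, was 4.01%. *Elk4* itself had 1867 to 3238 counts per library, and in unstimulated KO it was only 0.19 lower than in WT on the log2 scale (adjusted p = 0.00872). In stimulated KO it was 0.10 lower (adjusted p = 0.208). In HZ it was 0.24 higher than in WT at rest (adjusted p = 0.000484) and 0.17 lower after stimulation (adjusted p = 0.0243), and resting KO was below resting HZ, with a difference of -0.43 (adjusted p = 3.61e-08). Reads over the whole gene therefore did not follow the order of the genotype labels, and since the deleted stretch is not known from the files, groups are named here by their labels alone. All 10 mast cell markers were expressed, with summed levels of 34480 to 46832 FPKM (normalised for gene length and library depth). The neutrophil markers summed to at most 0.207 FPKM and the B and T cell markers to at most 0.0625 FPKM each. Macrophage markers summed to 6.28 to 14.4 FPKM, with *C1qa*, *C1qb* and *Mrc1* at 0 to 5 counts.

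*Nr4a1* was the most abundant member by FPKM in every library. In unstimulated WT it stood at 325 and 324 CPM (counts scaled for library depth with TMM factors), in unstimulated HZ at 32.4 and 30.8 CPM, and in unstimulated KO at 121 and 126 CPM. After stimulation it reached 6787 and 6940.4 CPM in WT, 6231 and 6389 CPM in HZ, and 7222 and 7239 CPM in KO. From lowest to highest, the order of the group means was HZ, KO and WT at rest but HZ, WT and KO after stimulation. With 188864 to 208332 reads in stimulated libraries, *Nr4a1* alone took 0.575% to 0.653% of all counted reads and ranked 7 or 8 among all genes by counts. At rest it ranked 409 and 413 in WT, 1595 and 1518 in KO, and 5257 and 5461 in HZ.

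*Nr4a2* was low at rest, with 12.9 and 13.2 CPM in WT, 7.37 and 8.01 CPM in HZ, and 12.3 and 12.9 CPM in KO. After stimulation it stood at 692.1 and 691.6 CPM in WT, 822 and 845 CPM in HZ, and 1312 and 1316 CPM in KO. The lowest group at rest was HZ, and the highest group after stimulation was KO by a wide margin. Resting WT and KO were neighbours that did not differ beyond their spread, with a log2 difference of -0.05 and a 95% interval of -0.19 to 0.08 (adjusted p = 0.567). The counts behind these levels were 256 to 463 per resting library and 20559 to 37886 per stimulated library.

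*Nr4a3* stood at 22.9 and 22.7 CPM in resting WT, 5.18 and 4.64 CPM in resting HZ, and 8.85 and 8.85 CPM in resting KO. Stimulated libraries held 2148 and 2136 CPM in WT, 1459 and 1460.45 CPM in HZ, and 2121 and 2132 CPM in KO. At rest WT was the highest group, and after stimulation HZ was the lowest while WT and KO lay side by side. Between stimulated KO and WT the log2 difference was -0.01, with a 95% interval of -0.06 to 0.04 (adjusted p = 0.773), so these neighbours did not differ beyond their spread. Resting HZ rested on 180 and 153 counts, the fewest for any member in any group.

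**Figure D1:**
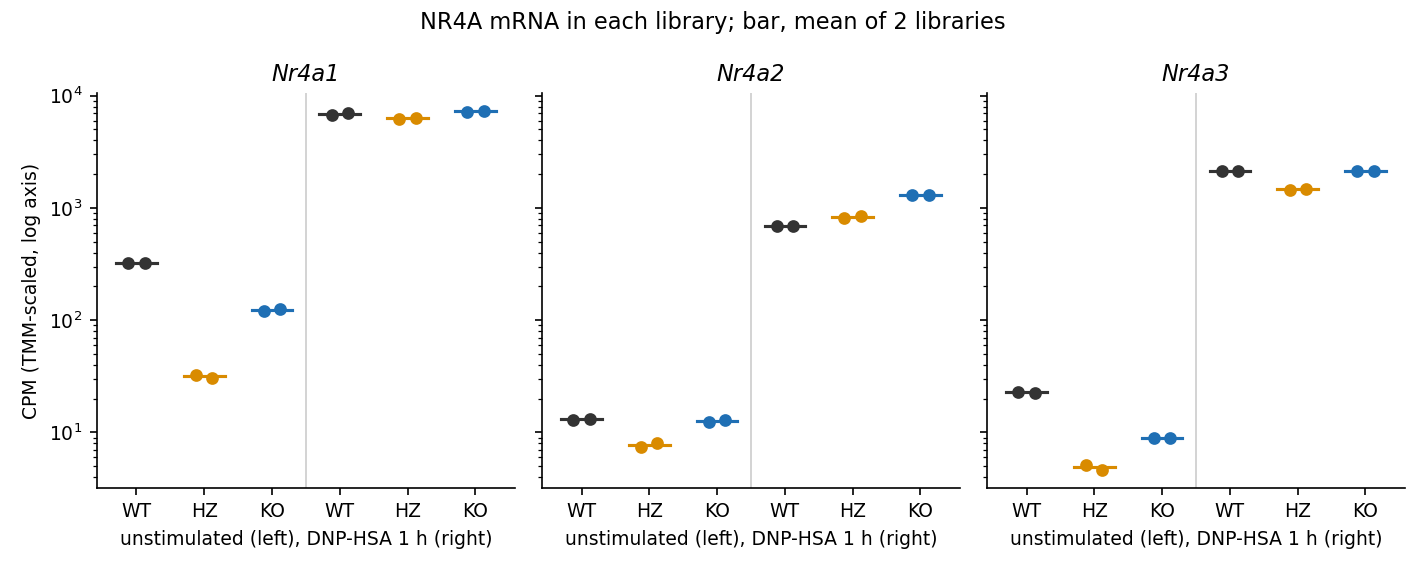
Level of each NR4A gene in every library (CPM scaled by TMM, log axis), with unstimulated groups left of the line and groups after 1 h of DNP-HSA right of it. Points are libraries and bars are means of 2 libraries. For all 3 genes the resting HZ libraries are the lowest, and the genotypes lie closer together on the right than on the left for *Nr4a1* and *Nr4a3*.

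Stimulation raised all 3 members in every genotype. In WT, *Nr4a1* rose from a mean of 324 ± 1.10 to 6864 ± 109 CPM (mean ± SD, n = 2), a log2 fold change of 4.40 ± 0.02 (SE) and 21.2-fold (95% interval 20.5 to 21.9). *Nr4a2* rose by 5.73 ± 0.04 in WT, or 53.0-fold (50.1 to 56.1), and *Nr4a3* by 6.55 ± 0.03, or 93.9-fold (89.5 to 98.5). With edgeR the adjusted p was 1.22e-62 for *Nr4a1*, 7.03e-58 for *Nr4a2* and 3.48e-63 for *Nr4a3*. Thus 3 of 3 members were called higher, which required an adjusted p under 0.05 and a log2 change of 1 or more, against 3.71% of all genes tested (453 genes), while 3.06% were called lower. Ranked by fold change among genes tested in WT, *Nr4a3* was in place 29, *Nr4a2* in place 45 and *Nr4a1* in place 78. *Nr4a1*, the member with the highest resting level, had the smallest fold change of the 3 in WT.

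In HZ the log2 fold change was 7.64 ± 0.03 for *Nr4a1* (199-fold), 6.76 ± 0.04 for *Nr4a2* (108-fold) and 8.21 ± 0.04 for *Nr4a3* (297-fold). In KO it was 5.88 ± 0.03 for *Nr4a1* (58.7-fold), 6.70 ± 0.04 for *Nr4a2* (104-fold) and 7.91 ± 0.04 for *Nr4a3* (240-fold). *Nr4a3* had the largest fold change in all 3 genotypes, whereas *Nr4a1* had the smallest in WT and KO and *Nr4a2* the smallest in HZ. On log2(FPKM + 1), which understates changes of low genes, the responses of *Nr4a3* were 5.92, 6.84 and 6.89 and those of *Nr4a2* 5.09, 5.98 and 6.07 in WT, HZ and KO, and in HZ *Nr4a1*, at 7.21, came before *Nr4a3*. All adjusted p-values in HZ and KO were 7.51e-60 or lower in edgeR. Genes called higher made up 7.02% of those tested in HZ and 3.73% in KO, and genes called lower 7.28% and 2.88%. Scaling by library totals in place of TMM moved the median of all genes to -0.32 in WT, -0.24 in HZ and -0.30 in KO and shifted the split of calls, from 453 higher and 373 lower to 341 and 848 in WT. In HZ the split went from 857 and 889 to 604 and 1351, and in KO it went from 455 and 352 to 354 and 721. Under that scaling the members still rose, by 4.09 to 6.25 in WT, 6.53 to 7.98 in HZ and 5.59 to 7.62 in KO.

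**Figure D2:**
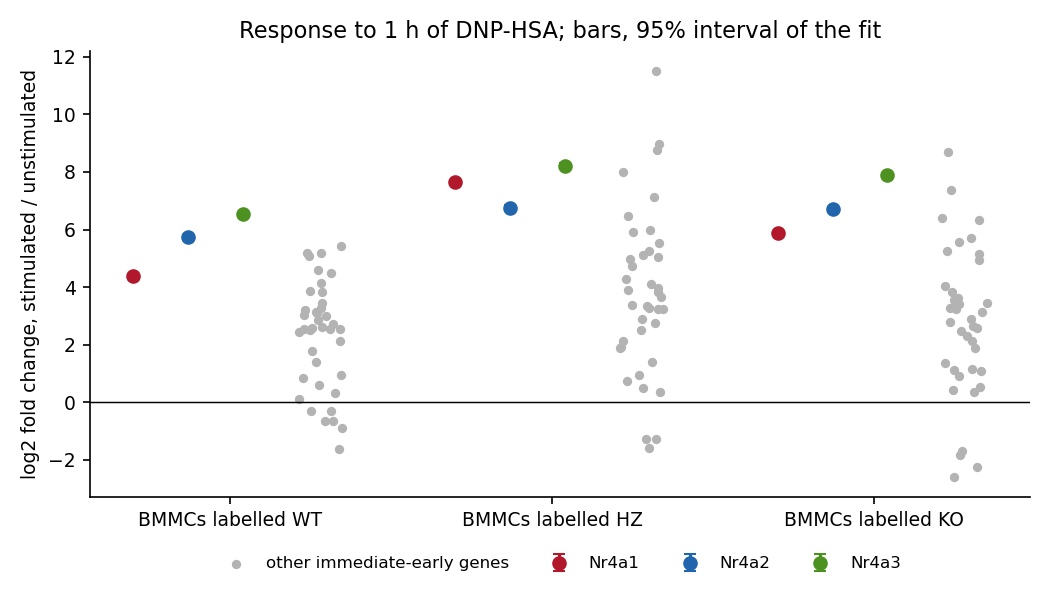
Log2 fold change of stimulated over unstimulated cells for each NR4A gene (coloured points, with 95% intervals that are mostly smaller than the point) and for 39 other immediate-early genes (grey points) in each genotype. *Nr4a2* (5.73) and *Nr4a3* (6.55) lie above all grey points in WT, and the highest grey points, *Ccn1* in HZ and *Plk2* in KO, had at most 3 counts per resting library there.

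At rest, all 3 members were lower in HZ than in WT, and *Nr4a1* and *Nr4a3* were also lower in KO, by less than in HZ. *Nr4a1* was 10.3-fold lower in HZ than in WT (log2 difference -3.36 ± 0.03) and 2.64-fold lower in KO (-1.40 ± 0.02). *Nr4a3* followed the same order, with a 4.63-fold lower level in HZ (-2.21 ± 0.06) and a 2.58-fold lower level in KO (-1.36 ± 0.05). *Nr4a2* was 1.7-fold lower in HZ (-0.76 ± 0.07), while KO differed from WT by -0.05 ± 0.07. With edgeR the adjusted p was 5.13e-54, 1.1e-13 and 6.33e-33 for *Nr4a1*, *Nr4a2* and *Nr4a3* in HZ, and 5.57e-41, 0.567 and 8.71e-27 in KO. At an adjusted p under 0.05 and a fold change of at most 0.66, 3 of 3 members were lower in HZ, against 9.11% of all genes tested, and 2 of 3 were lower in KO, against 7.72%. On log2(FPKM + 1) the *Nr4a3* difference of HZ from WT was -1.44. A further 7.63% of genes were called higher in HZ and 4.96% in KO.

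KO compared directly with HZ at rest was higher for every member. The fold was 3.89 for *Nr4a1* (log2 difference 1.96 ± 0.03, edgeR adjusted p = 2.69e-43), 1.64 for *Nr4a2* (0.71 ± 0.07, adjusted p = 1.52e-12) and 1.8 for *Nr4a3* (0.85 ± 0.07, adjusted p = 5.12e-14). In this comparison 4.83% of genes tested were called higher and 4.77% lower. On log2(FPKM + 1) the differences of *Nr4a2* (0.54) and *Nr4a3* (0.46) missed the fold of 1.5. The 3 comparisons at rest share libraries in pairs, so they are 3 views of the same 6 libraries.

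Marker levels of other cell types also differed between resting genotypes. Macrophage markers, 5 of 8 of which passed the filter, summed to 6.28 to 7.26 FPKM in WT, 11.8 to 13.8 FPKM in HZ and 12.2 to 14.4 FPKM in KO. Most of that difference was *Lyz2* (means 4.51, 10.5 and 11.4 FPKM), and *Adgre1* was also higher in HZ and KO. *Csf1r*, *Fcgr1* and *Cd14* were lower in both. The 4 dendritic cell markers summed to 1.46 to 1.96 FPKM in WT, 0.329 to 0.333 FPKM in HZ and 0.366 to 0.476 FPKM in KO, almost wholly through *Itgax*, while *Flt3*, *Zbtb46* and *Cd209a* had 0 to 6 counts in every library. Basophil markers summed to 97.1 to 99.5 FPKM in WT, 107 to 108 FPKM in HZ and 80.9 to 81.9 FPKM in KO, mainly through *Cd200r3* (91.1, 98.9 and 69.9 FPKM). *Mcpt8* (6.84, 7.57 and 10.6 FPKM) and *Prss34* (0.399, 1.12 and 0.837 FPKM) were higher in HZ and KO than in WT. The 10 mast cell markers summed to 38616 to 39462, 45462 to 46832 and 42349 to 43247 FPKM. Single mast cell markers went both ways, with *Cma1* at 11242 FPKM in WT and 14151 in KO and *Hdc* at 53.4 and 7.08 FPKM. Markers of megakaryocytes and erythroid cells summed to 554 to 565 FPKM in WT, 760 to 761 FPKM in HZ and 543 to 546 FPKM in KO. This was almost wholly *Itga2b* (means 559, 760 and 544 FPKM), while *Pf4*, *Hba-a1*, *Hbb-bs* and *Gp9* had resting means of at most 0.373 FPKM. The part of these in the NR4A differences was not tested. In bulk RNA, fewer cells that express a gene and less RNA per cell cannot be told apart.

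After 1 h of DNP-HSA the genotypes lay much closer together, except for *Nr4a2*. *Nr4a2* was 1.9-fold higher in KO than in WT (log2 difference 0.93 ± 0.03, edgeR adjusted p = 1.28e-30) and 1.58-fold higher in KO than in HZ (0.66 ± 0.03, adjusted p = 1.18e-23). In HZ it was 1.2-fold higher than in WT (0.27 ± 0.03, adjusted p = 5.37e-11), a difference that passed the adjusted p but not the fold of 1.5. It was thus the 1 of 3 members called higher in stimulated KO than in WT, against 5.44% of genes tested called higher and 7.22% called lower, and the 1 of 3 called higher in KO than in HZ, against 1.81% of genes called higher and 3.51% lower.

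*Nr4a1* differed little between stimulated genotypes, by 0.08 ± 0.02 in KO against WT (edgeR adjusted p = 0.00275), by -0.12 ± 0.02 in HZ against WT (adjusted p = 4.81e-06) and by 0.20 ± 0.02 in KO against HZ (adjusted p = 1.14e-10). These differences were 1.05-fold higher, 1.09-fold lower and 1.15-fold higher and none reached a fold of 1.5. *Nr4a3* was 1.47-fold lower in stimulated HZ than in WT (-0.55 ± 0.02, adjusted p = 7.1e-24) and 1.46-fold lower in HZ than in KO, where the KO minus HZ difference was 0.54 ± 0.02 (adjusted p = 8.84e-23), both just under the fold of 1.5. In HZ against WT, 0 of 3 members passed both thresholds, against 3.56% of genes tested called higher and 4.33% called lower. With the adjusted p alone, all 3 members differed in HZ against WT, where 18.4% of genes were higher and 16.5% lower, and *Nr4a1* and *Nr4a2* differed in KO against WT, where 21.2% were higher and 19.2% lower. The *Nr4a1* difference between KO and WT missed that limit without the first stimulated WT library (0.06, edgeR adjusted p = 0.0809) and with limma on FPKM (adjusted p up to 0.0907).

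**Figure D3:**
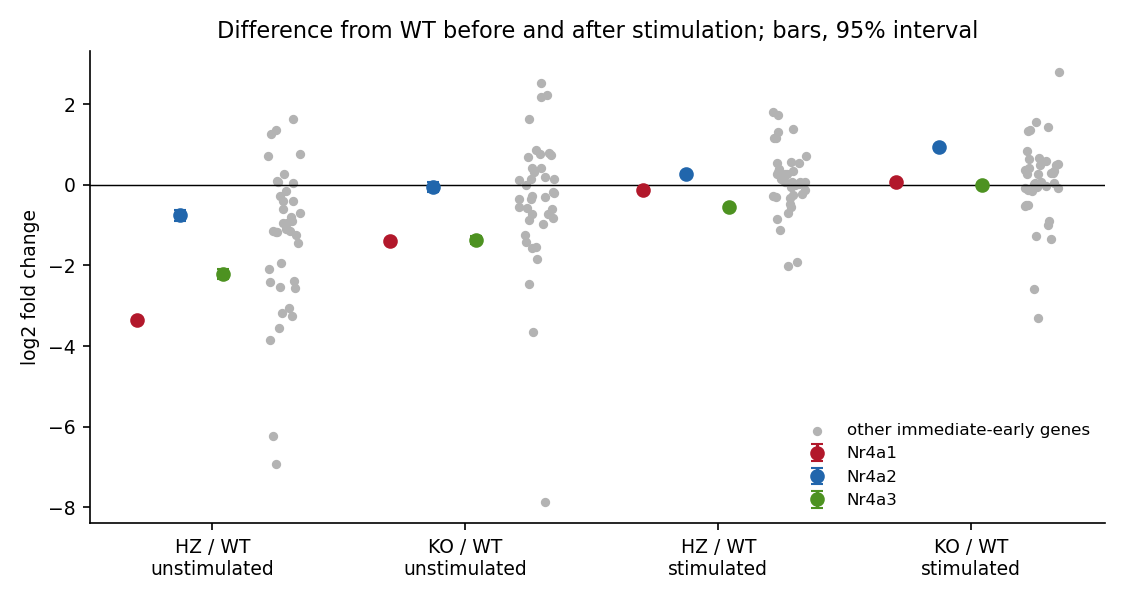
Log2 difference of HZ and KO from WT before and after stimulation for each NR4A gene (coloured points, with 95% intervals) and for 39 other immediate-early genes (grey points). *Nr4a1* lies at -3.36 in resting HZ and -1.40 in resting KO but at -0.12 and 0.08 after stimulation, and *Nr4a2* is at 0.93 in stimulated KO.

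The size of the response differed between genotypes for every member, as tested by interaction terms, which equal the genotype difference after stimulation minus that at rest. The rise in KO was larger than in WT by 1.47 ± 0.03 (log2) for *Nr4a1*, 0.98 ± 0.07 for *Nr4a2* and 1.35 ± 0.06 for *Nr4a3*, with adjusted p-values of 8.09e-36, 2.65e-16 and 4.8e-24 in edgeR. That made 3 of 3 members called higher, against 5.44% of genes tested called higher and 3.83% lower. The rise in HZ exceeded that in WT by 3.24 ± 0.03, 1.03 ± 0.07 and 1.66 ± 0.07 (adjusted p = 6.51e-49, 2.1e-16 and 1.31e-25), against a background of 19.9% of genes called higher and 18.6% lower. Between KO and HZ the rise was smaller in KO by 1.76 ± 0.04 for *Nr4a1* (log2 difference -1.76, adjusted p = 3.54e-37) and by 0.30 ± 0.09 for *Nr4a3* (-0.30, adjusted p = 0.00537), against 21.3% of genes called lower and 20.2% higher. For *Nr4a2* it differed by -0.06 ± 0.08, with an interval of -0.22 to 0.11 (adjusted p = 0.621). Without the second resting HZ library the *Nr4a3* interaction between KO and HZ was -0.24 (edgeR adjusted p = 0.0988), and on log2(FPKM + 1) it was 0.05, so that its direction depends on the scale used. On that scale the *Nr4a3* interaction was 0.92 for HZ against WT. Scaling by library totals moved the split of genes called in the HZ and WT interaction from 2429 higher and 2276 lower to 3120 and 1721.

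The members reached these interactions by different routes. For *Nr4a1* the KO against WT difference went from -1.40 at rest to 0.08 after stimulation, and for *Nr4a3* from -1.36 to -0.01, so that most of each interaction came from the resting libraries. For *Nr4a2* it went from -0.05 to 0.93, so that it came from the stimulated libraries. In HZ against WT, all 3 members were lower at rest, and after stimulation *Nr4a2* was 0.27 higher while *Nr4a3* remained 0.55 lower on the log2 scale.

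Levels of different genes were compared in FPKM, which accounts for gene length. The 3 members summed to 78.5 ± 0.103 FPKM (SD, n = 2) in resting WT, 9.63 ± 0.202 in resting HZ and 31.6 ± 0.787 in resting KO. After stimulation they summed to 1670.1 ± 17.1, 1539 ± 16.7 and 1874 ± 3.21 FPKM. *Nr4a1* made up 90.2% of the summed level in resting WT, 69.3% in resting HZ and 83.9% in resting KO, and 72.5%, 73.7% and 67.9% after stimulation. The *Nr4a2* share was 4.79%, 22.2% and 11.3% at rest and 9.65%, 12.8% and 16.3% after stimulation, in the order WT, HZ and KO. The *Nr4a3* share was 5.01%, 8.49% and 4.77% at rest and 17.9%, 13.5% and 15.8% after stimulation. In stimulated WT *Nr4a3* (298 FPKM) exceeded *Nr4a2* (161 FPKM), whereas in stimulated KO they were at 296 and 306 FPKM.

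**Figure D4:**
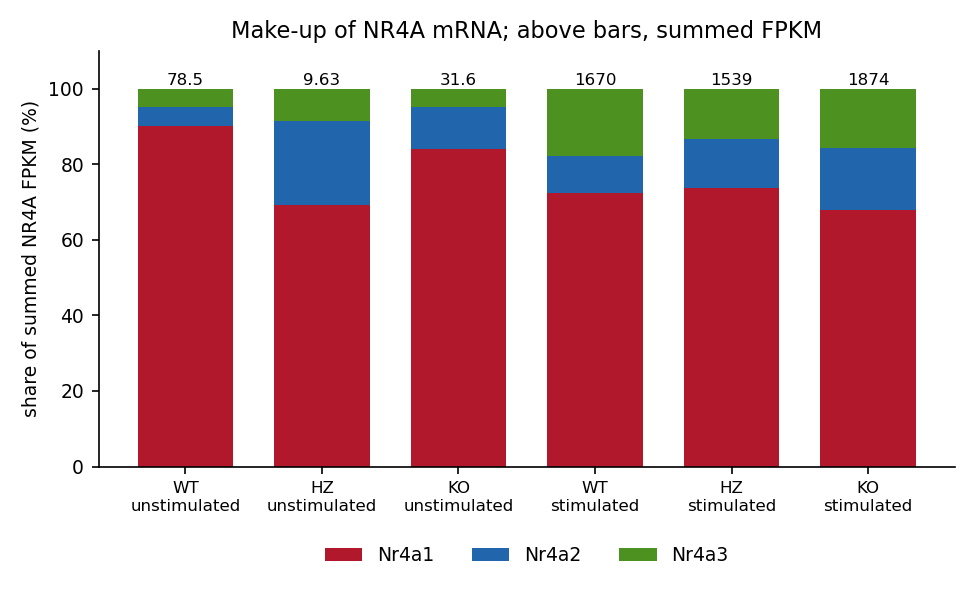
Share of each NR4A gene in the summed FPKM of the family (percent, means of 2 libraries), with the summed FPKM above each bar. The *Nr4a1* share is 90.2% in resting WT and 69.3% in resting HZ, and the *Nr4a2* share after stimulation goes from 9.65% in WT to 16.3% in KO.

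Set among the nuclear receptor genes, which encode ligand-regulated or orphan transcription factors of one fold, the NR4A genes stood apart after stimulation. The table held 34 other receptor genes, 16 of which were under 1 FPKM in all groups. Together they summed to 211 FPKM in resting WT and 170.0 FPKM in stimulated WT, while *Nr4a1* alone was at 70.8 and 1211 FPKM. *Nr4a1* ranked first of all receptor genes in resting WT, ahead of *Nr1h2* (liver X receptor beta, 60.6 FPKM), but second in resting KO (26.5 FPKM) and in place 11 in resting HZ (6.67 FPKM). *Nr4a2* ranked 14, 18 and 14 and *Nr4a3* 12, 21 and 19 in resting WT, HZ and KO. After stimulation the 3 members held places 1, 2 and 3 in every genotype, with *Nr4a3* ahead of *Nr4a2* in WT and HZ and behind it in KO.

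**Figure D5:**
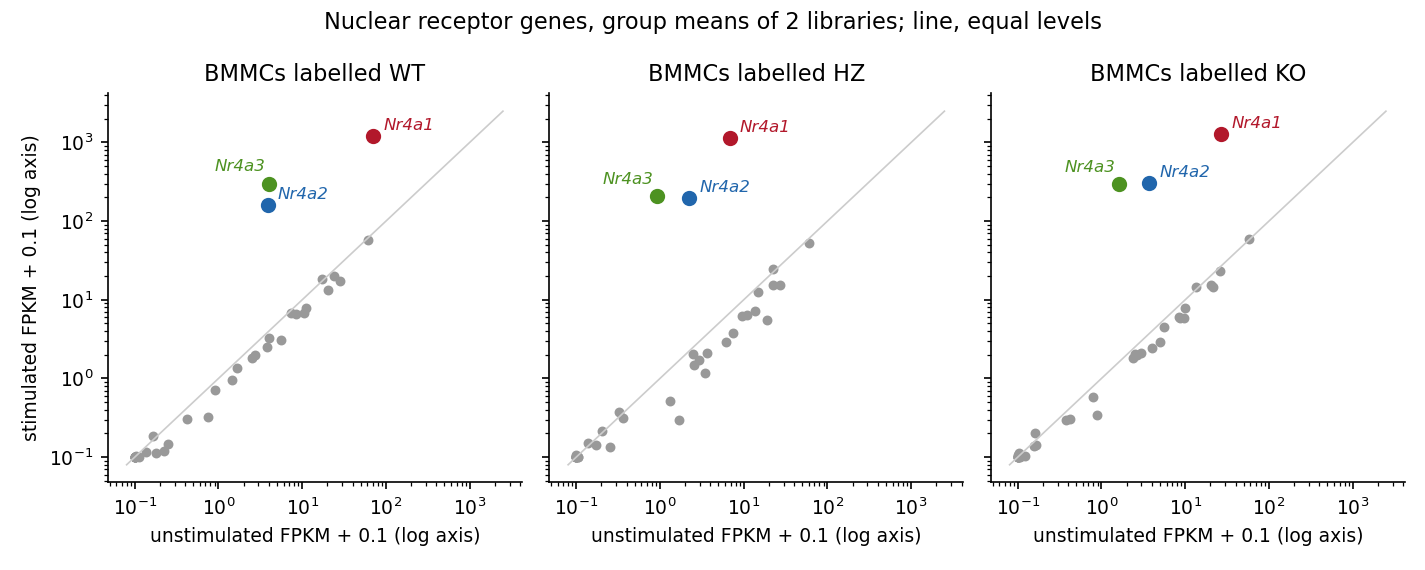
FPKM + 0.1 of each nuclear receptor gene in unstimulated (x) and stimulated (y) cells of each genotype, as means of 2 libraries on log axes, with a line at equal levels. The 3 NR4A genes lie far above the line and the 34 other receptor genes (grey) lie near or below it.

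None of the 24 other receptor genes tested was called higher on stimulation in any genotype, beside 3.71% of all genes in WT, 7.02% in HZ and 3.73% in KO. In WT, 1 was called lower (4.17%, against 3.06% of all genes), *Nr1d1* (REV-ERB alpha, a repressor in the circadian clock). Its log2 fold change was -1.21 ± 0.42 (edgeR adjusted p = 0.0148), from 59 and 50 counts to 15 and 26. In HZ 5 were lower (20.8%, against 7.28% of all genes), *Nr1d1*, *Nr1d2*, *Thra*, *Rora* and *Nr3c2*, with log2 fold changes of -2.76 to -1.31. In KO 2 were lower (8.33%, against 2.88%), *Nr1d1* and *Rora*. Apart from *Nr1d1*, these and the further list genes named below outside the WT response were picked after their values were seen. *Rora* was barely expressed, at 0.153 FPKM in resting and 0.0337 FPKM in stimulated HZ, and at 0.0223 and 0.00213 FPKM in KO. Its log2 fold changes of -1.94 ± 0.57 in HZ and -2.96 ± 1.10 in KO therefore rest on few reads. The median log2 fold change of the 24 was -0.24 in WT, -0.55 in HZ and -0.21 in KO, beside -0.01, -0.00 and -0.01 over all genes tested. At rest, 8 of the 24 (33.3%) were higher in HZ than in WT and none lower, beside 7.63% of all genes higher and 9.11% lower, whereas all 3 NR4A genes were lower there. KO against WT at rest gave 1 higher, *Thra*, a thyroid hormone receptor gene (1.09 ± 0.16), and none lower, beside 4.96% and 7.72% of all genes.

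Among 37 tested genes of the pathways that act on NR4A transcription (calcineurin and NFAT, MEF2 and class II histone deacetylases, CREB with its coactivators and kinases, and MAP kinase with serum response factor), 3 rose in WT (8.11%, against 3.71% of all genes) and none fell. At an adjusted p alone, 10 were higher and 5 lower in WT and 12 higher and 16 lower in HZ. How many of all genes passed that limit in the responses was not counted. *Rcan1*, a calcineurin inhibitor that is itself a target of calcineurin signalling, rose by 5.74 ± 0.03 (log2), *Sik1*, a kinase that restrains CREB coactivators, by 2.46 ± 0.45, and *Crem*, a CREB-family factor with repressor isoforms, by 1.24 ± 0.07. In HZ (13.5% of the 37 higher, against 7.02% of all genes) the same 3 genes and *Ppp3cc* (1.04 ± 0.14) and *Camk2d* (2.83 ± 1.06) rose and *Hdac9* fell, and in KO the same 3 rose (8.11%, against 3.73%) and none fell. The standard error of *Camk2d* was large, and its counts are not reported here. At rest *Crem*, *Nfatc2* and *Ppp3cc* were lower in HZ than in WT, by log2 differences of -0.73, -0.76 and -0.75, and *Crem* and *Hdac4* were lower in KO, by -0.64 and -0.72. These made 8.11% of the 37 in HZ and 5.41% in KO, against 9.11% and 7.72% of all genes called lower. *Sik1* went from 1 and 17 counts to 37 and 50 in WT, from 18 and 10 to 135 and 119 in HZ, and from 15 and 13 to 386 and 384 in KO. In stimulated cells *Sik1* was 9.28-fold higher in KO than in WT (edgeR adjusted p = 5.24e-13) and 2.78-fold higher in HZ than in WT (adjusted p = 0.000115). It was the 1 gene of the 37 (2.7%) called between stimulated KO and WT, against 5.44% of all genes called higher and 7.22% lower. The rise of *Crem* was larger in KO than in WT by 0.82 ± 0.10 (adjusted p = 6.81e-08), and that of *Rcan1* differed by 0.02 ± 0.05 (adjusted p = 0.867).

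Of 24 tested partners and coregulators of NR4A proteins, among them the RXR receptors, histone acetyltransferases and corepressors, none was called in the response of any genotype. At an adjusted p under 0.05 alone, 7 were higher and 10 lower in WT, with a median log2 fold change of 0.01. The share of all genes at that limit was not counted for the responses. Against WT, 7.63% of all genes tested were called higher in HZ and 4.96% in KO at rest, and 3.56% and 5.44% after stimulation. Near those shares, 1 of the 24 (4.17%) was called in either state, and it was higher in both HZ and KO than in WT. This was *Ncoa1*, a steroid receptor coactivator, with log2 differences of 2.70 ± 0.51 in HZ and 2.85 ± 0.50 in KO at rest. Its standard errors were large, and its counts are not reported here.

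Of 28 genes listed from general knowledge as controlled by NR4A factors in other tissues, 22 were in the table and 16 were tested. In WT 2 rose (12.5%, against 3.71% of all genes) and none fell, and in HZ 4 rose (25%, against 7.02%) and 1 fell, while in KO 4 rose (25%, against 3.73%) and none fell. Beside *Havcr2* and *Spp1*, the risers were *E2f1* (1.24 ± 0.06) and *Ccnd1* (2.20 ± 0.46) in HZ and *Ccnd1* (1.04 ± 0.38) and *Ucp3* (3.06 ± 1.16) in KO, and *Tox* fell in HZ. *Ddc*, which encodes aromatic amino acid decarboxylase, was lower in KO than in WT both at rest and after stimulation (-1.97 ± 0.06 in the latter), and lower in HZ by -0.98 ± 0.05 and -0.84 ± 0.05. At rest 3 of the 16 were lower in HZ than in WT (*Ddc*, *Spp1* and *Ccnd1*) and 2 higher (*Pomc*, 2.62 ± 1.05, and *Tox*, 2.10 ± 0.91), and in KO 2 were lower (*Ddc* and *Spp1*) and none higher. The shares were 18.8% lower and 12.5% higher in HZ, against 9.11% and 7.63% of all genes. In KO 12.5% were lower, against 7.72% of all genes, and 4.96% of all genes were higher. After stimulation *Ucp3* was 4.18 ± 1.42 higher in KO than in WT (6.25% of the 16, against 5.44% of all genes), and *Ddc* and *Spp1* were lower in both mutants. The lower genes made 12.5% of the 16, against 7.22% of all genes in KO and 4.33% in HZ. Standard errors of *Ucp3*, *Pomc* and *Tox* were large, and their counts are not reported here. *Havcr2*, which encodes the inhibitory receptor TIM-3, rose by 2.13 ± 0.03 (log2) in WT, 1.62 ± 0.03 in HZ and 2.44 ± 0.03 in KO. *Spp1*, which encodes osteopontin, went from 108 and 85 counts to 224 and 283 in WT, from 14 and 10 to 145 and 116 in HZ, and from 6 and 0 to 123 and 141 in KO. Its resting level was lower in HZ (-2.99 ± 0.36) and KO (-5.05 ± 0.46) than in WT, with adjusted p-values of 1.05e-09 and 6.61e-13 in edgeR.

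The members were also set beside 39 other immediate-early genes. In WT 28 of these rose (71.8%) and 1 fell, *Id3*, at -1.63. In HZ 32 rose and 2 fell, and in KO 31 rose and 3 fell, with medians of 2.59, 3.65 and 2.89 in WT, HZ and KO. Over all genes tested, 3.71%, 7.02% and 3.73% rose and 3.06%, 7.28% and 2.88% fell in WT, HZ and KO. The largest rises in WT were those of *Ccn1*, a matricellular protein gene (5.44), *Fos* and *Atf3*, which encode bZIP factors (5.18 each), *Btg2*, an antiproliferative gene (5.07), *Dusp1*, a MAP kinase phosphatase gene (4.61), *Egr4*, a zinc-finger factor gene (4.48), *Plk2*, a polo-like kinase gene (4.15), and *Zfp36*, which encodes an mRNA decay factor (3.85). Of the 39, 6 rose more than *Nr4a1* in WT and none rose more than *Nr4a2* or *Nr4a3*. The list does not hold every immediate-early gene, and genes outside it rose more. *Ptgs2* rose by 7.96 in WT, more than all 3 members, and *Trib1* by 5.83, more than *Nr4a2* (5.73). These 2 genes were picked after their values were seen. Over all genes tested *Nr4a3* was in place 29 and *Nr4a2* in place 45. For *Ccn1* in HZ and *Plk2* in HZ and KO the resting counts were at most 3 per library, so the rise there was at least 124-fold, 43.4-fold and 19.0-fold.

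At rest, 24 of the 39 (61.5%) were lower in HZ than in WT and 5 higher, with a median log2 difference of -1.10, and 14 (35.9%) were lower in KO and 8 higher, with a median of -0.28. Over all genes tested, 9.11% were lower and 7.63% higher in HZ, and 7.72% lower and 4.96% higher in KO. KO was higher than HZ for 22 of the 39 and lower for 2, against 4.83% and 4.77% of all genes. Of the 39, 4 were lower in HZ by more than *Nr4a1* and 11 by more than *Nr4a3*, and in KO 7 were lower by more than *Nr4a1*. After stimulation the medians were 0.06 in HZ and 0.07 in KO, with 6 of the 39 higher and 4 lower in HZ and 9 higher and 4 lower in KO. Of all genes, 3.56% were higher and 4.33% lower in HZ, and 5.44% higher and 7.22% lower in KO. The *Nr4a2* difference of 0.93 in stimulated KO was exceeded by 5 of the 39. The rise was larger in KO than in WT for 23 of the 39 (59%) and smaller for 3, against 5.44% and 3.83% of all genes. It was larger in HZ than in WT for 29 (74.4%) and smaller for 1, against a wider background of 19.9% and 18.6%.

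The genes whose pattern was most like each member were found from the root mean square difference of log2 CPM over the 12 libraries, with each gene centred on its own mean. For *Nr4a1* they were *Egr2*, which encodes a zinc-finger factor (0.38), *Fos* (0.41), *Tagap* (0.47), *Trib1*, which encodes a pseudokinase (0.56), and *Ccl4*, which encodes a chemokine (0.64). *Egr2* had 8767 and 8765 counts in resting WT, 724 and 757 in resting HZ, and 2761 and 2454 in resting KO, and 70400 to 107903 after stimulation. For *Nr4a2* they included *Rasgef1b*, which encodes a guanine nucleotide exchange factor (0.35), *Cav1* (0.35), *Dusp1* (0.41) and *Nts*, which encodes neurotensin (0.42). *Cav1* and *Nts* had no counts at rest and at most 55 per library after stimulation, so their likeness rests on few reads. *Dusp1*, with 5837 and 5853 counts in stimulated WT, 13970 and 13229 in stimulated HZ, and 14531 and 15400 in stimulated KO, was higher in both stimulated mutants, whereas *Nr4a2* was higher mainly in KO.

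For *Nr4a3* the nearest genes were *Trib1* (0.60), *Fos* (0.62), *Nfkbid*, which encodes a nuclear inhibitor of NF-κB (0.70), *Il13*, which encodes a cytokine of allergic inflammation (0.72), and *Rasl11b* (0.72), which had at most 1 count at rest. *Il13* had 647 and 798 counts in resting WT, 275 and 312 in resting HZ, and 488 and 476 in resting KO, and 26650 to 37665 in stimulated libraries. *Nr4a2* was in place 21 and *Nr4a3* in place 24 of all genes by likeness to *Nr4a1*, with differences of 0.82 and 0.89, and *Nr4a2* was in place 8 by likeness to *Nr4a3*, with 0.80, but in place 5 on log2(FPKM + 1), with 0.59. All these patterns share the large step between unstimulated and stimulated libraries.

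The genes beside the members in the RefSeq order of genes, 3 on each side, did not show a rise of like size. Next to *Nr4a1*, *Grasp* (also *Tamalin*), a scaffold protein gene with 65 to 122 counts, changed by 0.84 in WT, 0.33 in HZ and 0.50 in KO on the log2 scale, and *Atg101*, an autophagy gene, by -0.36, -0.50 and -0.42. Next to *Nr4a3*, *Stx17*, a gene of autophagosome fusion, changed by -0.29, -0.75 and -0.32, and *Erp44*, a chaperone gene of the secretory pathway, by 0.14, 0.28 and 0.14. None of these 4 was called in any response. *Smim41*, also beside *Nr4a1*, had 0 to 5 counts and was not tested, and the other neighbours, among them all those of *Nr4a2*, had no row in the count table. A predicted gene of RefSeq, LOC105244150, overlaps *Nr4a2*, and since the strand setting of the counting is not given in the sources used here, reads of an overlapping transcript could not be told from those of *Nr4a2*.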

How the data were processed

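RNA of BMMCs was measured in 12 libraries, in 6 groups of 2 set by the genotype and treatment labels. The authors deposited raw read counts per gene, without normalization, and FPKM values for the same genes. The submitters' processing notes name fastp, HISAT2 and HTSeq and the build GRCm39. Versions, annotation and strand setting are not given in the sources used here. No column was left unused. Libraries of a group differed by more than counting noise (chi-square per degree of freedom 2.898 to 5.369) and were counted as separate libraries. This does not tell whether they came from separate mice or cultures.

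The analysis used edgeR 4.0.16 in R 4.3.3. After filterByExpr, 12208 of 16234 genes were tested, and 172 had no count. TMM factors were 0.9016 to 0.9237 for stimulated and 1.08 to 1.122 for unstimulated libraries. One quasi-likelihood model of 6 group means was fitted (common dispersion 0.00161, 6 residual and 38.9 prior degrees of freedom, prior count 0.125), with two-sided p-values adjusted by the Benjamini-Hochberg method over all genes tested. Responses were called at an adjusted p under 0.05 with a log2 change of 1 or more in either direction, genotype differences at an adjusted p under 0.05 and a fold of at least 1.5 or at most 0.66, and interactions at an adjusted p under 0.05. CPM are counts scaled by TMM. A fold against groups with at most 3 counts per library is a bound against 3 counts. Standard errors were derived from the test and are the larger of 2 estimates. The fits were tested on simulated data with known changes.

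With 29697958 to 35531667 counts per library, counting error matters most for *Nr4a2* and *Nr4a3* at rest, which had 153 to 794 counts per library. Labels use the same replicate numbers for unstimulated and stimulated libraries. Deviations of libraries with the same number had correlations of -0.076 in WT, 0.174 in HZ and 0.034 in KO over 5328 genes. With 2 libraries per group, this cannot tell whether the numbers mark the same culture, and the main fit did not pair them.

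Alternatives were DESeq2 1.42.0, DESeq2 size factors and library totals in edgeR, other count filters, fits of the compared groups alone, replicate blocks, a prior count of 2, each library left out, and limma 3.58.1 with log2(FPKM + 1), filtered at a mean of 0.5 FPKM or unfiltered, and with log2(FPKM + 0.1). A genotype comparison without the fold threshold was added after the data were seen. The genes named are the members, list genes called in the WT response (up to 8 per list, by size), the 5 genes most like each member (1 of those of *Nr4a2* is not reported here), 3 neighbours on each side, and *Elk4* and cell markers. The members and lists were chosen with earlier results of these data known. Promoter windows and gene order come from RefSeq on GRCm38.p6, which is not the files' build, so no coordinates were mixed. Motif searches ran from 250 bases before to 50 after each start site. A comparison of the 3 proteins was not made here, and sex-linked marker genes were not analysed here.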

Additional observations from a re-analysis of the deposited data

Results flagged for a closer look

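The results given here are differences of the stimulation response between genotypes that passed an interaction test (edgeR's quasi-likelihood test, adjusted p under 0.05). The *Nr4a1* response was larger by 1.47 on the log2 scale in KO than in WT and by 3.24 in HZ than in WT, and the KO minus HZ difference was -1.76. The *Nr4a2* response was larger by 0.98 in KO than in WT and by 1.03 in HZ than in WT. The *Nr4a3* response was larger by 1.35 in KO than in WT and by 1.66 in HZ than in WT, and the KO minus HZ difference was -0.30.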

How the results depend on the processing

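Of 612 values of member differences under alternatives, 596 kept direction and call. Without the fold threshold, 6 differences between stimulated genotypes would be called (*Nr4a1* 0.08, -0.12 and 0.20 for KO against WT, HZ against WT and KO against HZ, *Nr4a2* 0.27 for HZ against WT, and *Nr4a3* -0.55 and 0.54 for HZ against WT and KO against HZ). On log2(FPKM + 1), which understates low genes, with or without the filter, resting KO against HZ fell under the fold limit for *Nr4a2* (0.54) and *Nr4a3* (0.46), and the KO against HZ interaction changed sign for *Nr4a2* (0.08) and *Nr4a3* (0.05). On that scale *Nr4a3* values moved by over 1.5-fold, to 5.92, 6.84 and 6.89 for the WT, HZ and KO responses, -1.44 for resting HZ against WT and 0.92 for its interaction, as did the *Nr4a2* responses (5.09, 5.98 and 6.07). With single libraries left out, the KO against HZ interaction ranged from -0.13 to 0.00 for *Nr4a2*, the end of 0.00 coming without the first resting HZ library, and from -0.39 to -0.24 for *Nr4a3*, where it missed the threshold without the second resting HZ library (edgeR adjusted p = 0.0988). At adjusted p alone, stimulated *Nr4a1* in KO against WT was lost without the first stimulated WT library (adjusted p = 0.0809). A block on the replicate number changed no member's call (*Nr4a1* in WT 4.40, *Nr4a2* 5.73, *Nr4a3* 6.55), and whether the numbers pair the libraries is not known.

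Genes called on log2(FPKM + 1), with and without the filter, fell to 353 and 355 for the WT response, 768 and 770 for HZ and 389 and 388 for KO. They fell to 801 and 823 for resting KO against WT, 1132 and 1160 for HZ against WT and 590 and 595 for KO against HZ, and to 730 and 744, 405 and 414, and 270 and 265 for the same comparisons after stimulation. The KO and WT interaction gave 1132 calls in the reported fit, 716 and 623 on log2(FPKM + 1), 652 on log2(FPKM + 0.1), and 698 to 982 with single libraries left out, the lowest without the second resting KO library. Of the 5 genes most like each member, log2(FPKM + 1) kept 3 for *Nr4a1*, 2 for *Nr4a2* and 3 for *Nr4a3*. Of 960 counts for the context lists, 819 stayed within 1.5 times the reported count.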
